A study of Bubalus bubalis with 12 samples.

Results

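The carbonic anhydrase genes of the ruminal wall were taken as the rows of the deposited expression table whose gene name is CA1, CA2, CA3, CA4, CA8, CA9, CA12, CA13 or CA14. Of these 9 genes, 8 had a row among the 34037 genes of the table, and CA1 had no row under that name. Ruminal wall biopsies were taken from 12 Italian Mediterranean dairy buffaloes, with 1 library of total RNA per animal. The control group of 6 animals was fed a total mixed ration (TMR). The treated group of 6 animals was fed TMR with green feed, fresh ryegrass, as 30% of the diet. The paper also lists less corn silage, alfalfa hay and concentrate, more corn meal, and no soybean meal, calcium carbonate or vitamins in that ration. It describes the diets as matched in nitrogen and energy. Effects of the ryegrass and of these other changes cannot be told apart. All animals were kept on the same farm. Levels are in FPKM, the fragments counted for a gene divided by its length and by all counted fragments of the animal, so that levels of different genes can be set side by side.

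Carbonic anhydrases speed up the conversion of carbon dioxide and water to bicarbonate and a proton. In the rumen, where fermentation releases short-chain fatty acids and carbon dioxide, they are known as the source of the bicarbonate and protons that epithelial exchangers trade for chloride, sodium and fatty acid anions. The family differs in where its members sit: CA1, CA2, CA3 and CA13 are cytosolic, CA4 is held on the outer surface of the cell by a lipid anchor, CA9, CA12 and CA14 cross the membrane with the active site outside, and CA8 is a related protein that has lost the enzymatic activity.

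The libraries held between 10531541 and 12948372 counted fragments. Within each gene the FPKM were whole multiples of the value of 1 read, and these steps gave the reads counted for a gene in an animal. Squamous epithelium markers had a high summed level in every animal, 5026 to 9186 FPKM in the control and 5576 to 9548 FPKM in the treated group. KRT5 and KRT13 had means of 1493 and 1572 FPKM, whereas KRT4 and DSG1 of the same list had 0.494 and 3.48 FPKM. Smooth muscle markers were lower, with means of 2.01 FPKM for MYH11 and 2.44 FPKM for DES. The highest of that list were SMTN with 13.5 FPKM and TAGLN with 7.70 FPKM. Libraries of control replicate 6 and treated replicate 6 correlated least with the others (median r of 0.925 and 0.923 over the tested genes, against 0.937 to 0.960 in the other animals). These 2 animals also had the lowest epithelium scores (mean z-score of the epithelium markers of -0.88 and -1.05).

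CA12 was the highest of the named members. This transmembrane enzyme with its active site outside the cell (gene identifier 102396780) had a lowest level of 55.2, a median of 79.0 and a highest level of 121 FPKM in the control group. In the treated group the corresponding levels were 45.4, 77.1 and 105 FPKM. The 2 lowest animals were treated replicate 6 and control replicate 6, and the groups overlapped along nearly their whole range. The means were 81.1 ± 24.9 FPKM in the control and 78.8 ± 21.7 FPKM in the treated group (SD, n = 6 each), resting on 4168 to 10355 reads per animal. CA12 was at rank 724 of the 12642 genes tested by mean FPKM. It made up 63.2% to 83.8% of the summed FPKM of all members in an animal, with a median of 80.0%. These shares cover the genes that carry a member's name, and so leave out CA1, which had no row, and any carbonic anhydrase listed under another name. The lowest share was that of an animal low in CA12 and high in CA13, treated replicate 6.

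CA13, a cytosolic enzyme (102415344), was the other member expressed at a substantial level. Its lowest, median and highest levels were 12.8, 15.4 and 18.5 FPKM in the control group, and 13.9, 15.4 and 21.1 FPKM in the treated group. The medians lay side by side, and the highest value belonged to treated replicate 6, the animal lowest in CA12. CA13 varied little between animals: the within-group SD of its log2 level was 0.21, and 15.6% of the tested genes had a smaller one. For CA12 the SD was 0.44, larger than that of 62.7% of the genes. The ratio of CA12 to CA13 therefore ranged from 2.15 in treated replicate 6 to 6.89 in treated replicate 3, with a median of 5.26, and its group difference was a log2 of -0.11 (two-sided exact permutation test, p = 0.742).

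CA9 was the second membrane enzyme, an isoform best known as a target of hypoxia-inducible factor (102391354). Control animals had 1.57 to 2.87 FPKM (median 2.05), and treated animals had 1.87 to 2.92 FPKM (median 2.52). Values stood on 39 to 88 reads per animal. Treated animals were on either side of the control median, 4 above it and 2 below.

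The inactive relative CA8 (102415399) had 0.444, 1.28 and 1.83 FPKM as its lowest, median and highest levels in the control group. The treated group had 0.290, 1.04 and 1.60 FPKM. Between 7 and 44 reads stood behind these values, and the within-group SD of 0.82 on the log2 scale was larger than that of 91.6% of the tested genes. Treated replicate 1 was the lowest animal and control replicate 2 the highest. CA8 was also the member just inside the threshold on reads for testing, with 44.4 TMM-scaled reads in its highest animal, while CA3 was just outside with 37.1.

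The remaining members were near the limit of detection. CA4, the lipid-anchored enzyme that marks capillary endothelium in the lung (102410324), had 0.412 to 1.67 FPKM in control animals (median 1.00). Treated animals had 0 to 1.14 FPKM (median 0.877), and treated replicate 1 had 0 reads where the other animals had 6 to 30. CA2, the fast cytosolic enzyme that is abundant in red blood cells and in many acid- or bicarbonate-secreting epithelia (102416531), had 1 to 18 reads. Control animals had 0.0613 to 1.04 FPKM (median 0.402) and treated animals 0.185 to 0.610 FPKM (median 0.303). The control animals spanned the wider range, and 3 animals were at or under 3 reads.

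CA3, a cytosolic isoform of low activity known from skeletal muscle and fat (102415669), had 0 reads in 5 animals, 2 control and 3 treated. It reached 1.71 FPKM in control replicate 3, whose 39 reads were 44.3% of all 88 reads for the gene, and at most 0.659 FPKM (14 reads) in a treated animal. Skeletal muscle markers were equally scarce: of 6 such genes with a row none was above 1 FPKM on average or passed the threshold for testing, 1 was at 0 in every animal, the highest, CKM, had a mean of 0.718 FPKM, and the summed level was 0.272 to 2.08 FPKM in the control and 0.932 to 1.84 FPKM in the treated group. CA14 (102392485), a transmembrane isoform, had 0 reads in all 12 animals. A count of 0 among 145596348 fragments allows up to 3 reads, or 2.06e-06% of the fragments, counting error only.

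**Figure D1:**
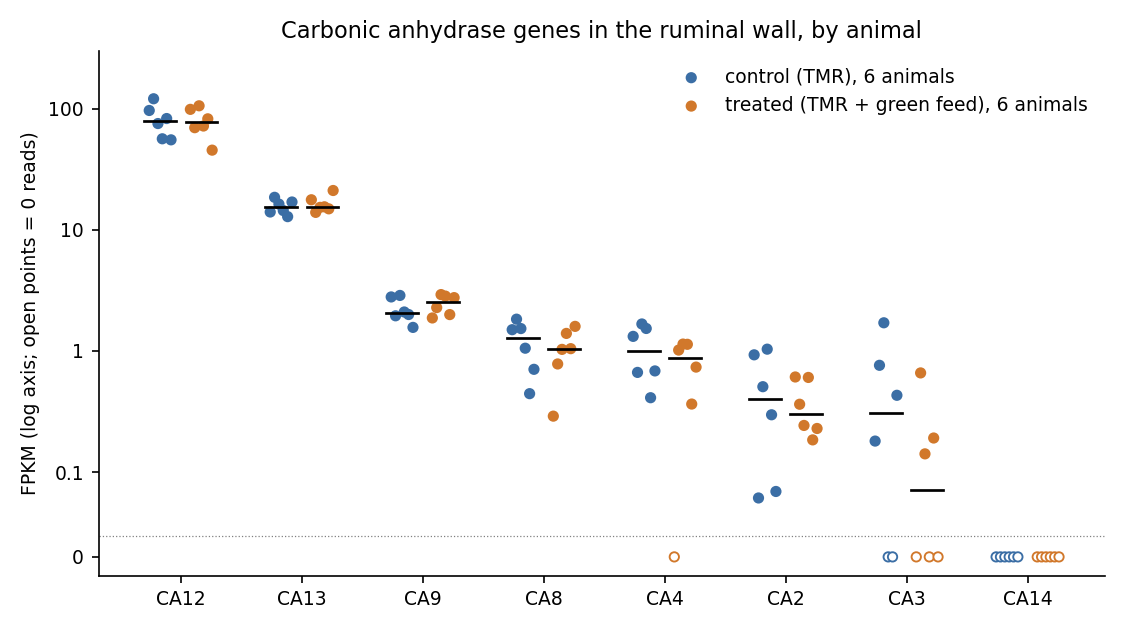
Level of each carbonic anhydrase gene in FPKM on a log axis, with 1 point per animal (blue control, orange treated, 6 animals each), a bar at each group's median and open points for animals with 0 reads. CA12 sits between 45.4 and 121 FPKM in all 12 animals and CA13 between 12.8 and 21.1, above every other member, and the groups overlap for each gene.

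**Figure D2:**
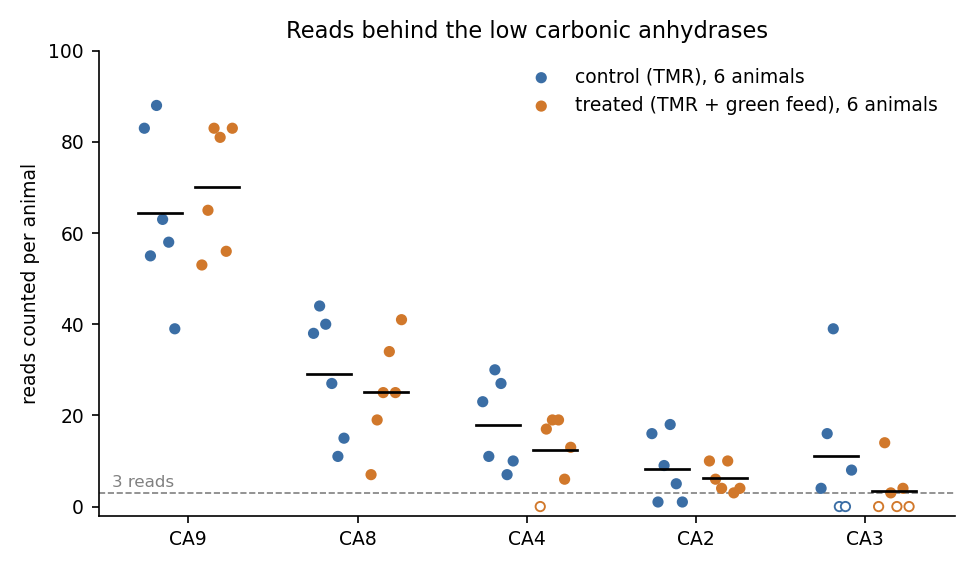
Reads counted per animal for the 5 low members, with bars at the group means and a dashed line at 3 reads. CA9 stands on 39 to 88 reads in every animal, whereas CA2 falls to 1 read and CA3 to 0 reads in 5 animals.

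By mean log2 FPKM the order was CA12, CA13, CA9, CA8, CA4, CA2, CA3 and CA14. The first 3 steps held in 12 of 12 animals. CA12 exceeded CA13 by 4.87-fold (SD of the log2 difference 0.50, n = 12), CA13 exceeded CA9 by 6.90-fold (SD 0.37) and CA9 exceeded CA8 by 2.32-fold (SD 0.67). Each of these steps reached the smallest p that the two-sided exact sign-flip permutation test over 12 animals can give, 0.000488, or 0.00114 after Benjamini-Hochberg adjustment over 7 neighbouring pairs. CA8 and CA4 did not differ beyond the spread between animals (8 of 12 animals higher in CA8, adjusted exact p = 0.123). Neither did CA2 and CA3 (7 of 12 animals, adjusted exact p = 0.123). The step from CA4 to CA2 was decided by treated replicate 1, the animal with 0 reads of CA4. CA4 was higher in 11 of 12 animals (adjusted exact p = 0.220), and without treated replicate 1 it was higher in 11 of 11, by 2.87-fold (SD of the log2 difference 0.99, adjusted exact p = 0.00171). CA3 was above 0 in 7 animals and CA14 in none. The same order of the 8 members was found in the control animals alone and in the treated animals alone.

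The question of the design was whether green feed changed expression. It changed no member past the test. Of the 4 members that passed the threshold for testing (CA8, CA9, CA12 and CA13), 0 had a nominal p below 0.05 in limma, against 157 of 12642 genes, 1.24% of those tested (0.791% higher and 0.451% lower in treated animals). With Benjamini-Hochberg adjustment, limma called 0 of the 12642 genes, and voom on the worked-out reads called 0 adjusted and 144 at a nominal p below 0.05. The median log2 difference of the 4 members was 0.02, beside 0.01 over all genes tested.

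CA12 differed by a log2 of -0.04 (SE 0.23), treated minus control, and the 95% interval of -0.52 to 0.45 corresponds to 0.696-fold to 1.37-fold. The two-sided exact permutation test over the 924 assignments of the animals gave p = 0.894. Without treated replicate 6 the difference was 0.11, without control replicate 1 it was 0.03 and without control replicate 2 it was 0.09, so that its sign was set by single animals. CA13 had the narrowest interval, a log2 of 0.08 (SE 0.13; 0.871-fold to 1.28-fold; exact p = 0.532). It stayed between 0.0018, without treated replicate 6, and 0.13, without control replicate 2.

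The CA9 difference was 0.15 (SE 0.20; 0.830-fold to 1.49-fold; exact p = 0.411), and it moved between 0.06 without control replicate 6 and 0.23 without control replicate 3. That of CA8 was -0.22 with a wide interval (SE 0.44; 0.447-fold to 1.64-fold; exact p = 0.647), and it turned to 0.10 without treated replicate 1. Adjusted limma p-values were 0.9997 for each of these 4 genes.

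Of the 3 members above 0 that were too low for testing, the fit over all 22972 genes above 0 gave a log2 difference of -1.25 for CA4 (SE 1.01; exact p = 0.342), 0.15 for CA2 (SE 0.72; exact p = 0.853) and -1.52 for CA3 (SE 1.52; exact p = 0.372). In that fit 562 genes, 2.45%, had a nominal p below 0.05, and none of the 3 did. The CA4 difference rested on the animal at 0 reads: without treated replicate 1 it was -0.19. The CA3 difference ran from -0.81 without control replicate 3, which held the 39 reads, to -2.30 without control replicate 4 or 5, both at 0 reads, and was -2.25 without treated replicate 2. All 7 members above 0 overlapped between the groups. Among all genes tested, 0.0554% did not overlap.

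**Figure D3:**
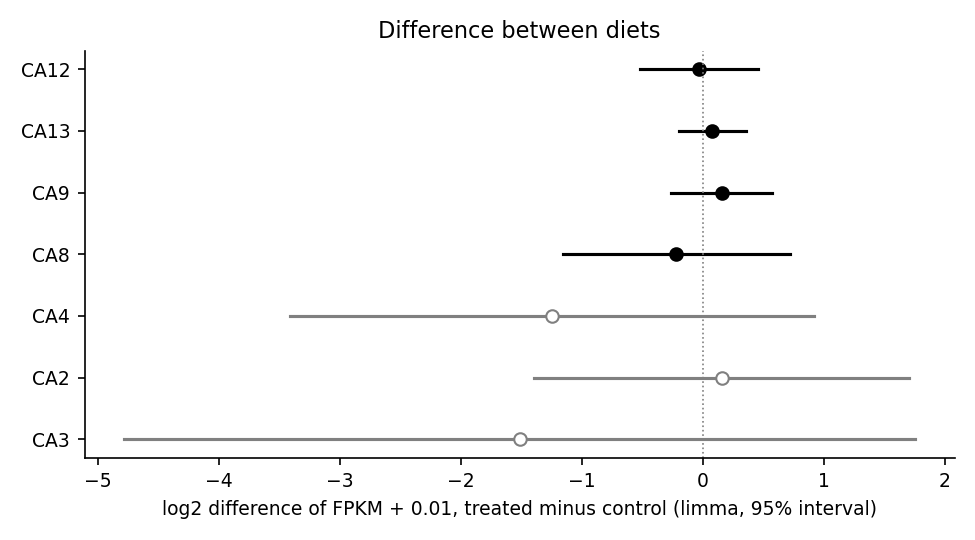
Difference between the diets for each member above 0, as log2(FPKM + 0.01) of treated minus control animals with the 95% interval from limma. Filled black points are the 4 tested members and open grey points the 3 members below the threshold on reads, taken from the fit over all genes above 0. Every interval spans 0, from the narrow one of CA13 to that of CA3.

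To see which members moved with which part of the wall, the level of each member in each animal, minus its group mean, was compared with scores of marker genes (mean z-scores, also minus group means). These 27 relations, over 7 members and 2 neighbouring genes and 3 scores, were chosen after the data were seen. They were tested over 12 animals by permutation within the groups with 100000 resamples. In whole tissue, more cells of a type and more RNA per cell cannot be told apart.

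CA8 followed the endothelium score, made of PECAM1, VWF, CDH5, KDR, CLDN5, TEK and EGFL7, the adhesion molecules, receptors and secreted proteins that mark the lining of blood vessels. Pearson's r was 0.89 (permutation p = 0.00067, adjusted 0.00904) and Spearman's rho 0.82 (permutation p = 0.00376, adjusted 0.0354). Without the 2 animals farthest from the median, r was 0.80. CA8 correlated with each of the 7 markers (r from 0.71 for EGFL7 to 0.90 for TEK). Of the 12642 tested genes, the markers themselves included, 26 (0.206%) had an r with the score at least as high.

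CA9 followed the same score. Its r with the endothelium score was 0.87 (permutation p = 0.00052, adjusted 0.00904), its rho 0.85 (permutation p = 0.00098, adjusted 0.0265) and its r without the 2 farthest animals 0.85. Within the control group r was 0.88 and within the treated group 0.90, and 42 tested genes (0.332%) reached as high a value. So did CA4 (r = 0.78, permutation p = 0.00211, adjusted 0.0190; rho = 0.74, permutation p = 0.00393, adjusted 0.0354). Its r was 0.58 without the 2 farthest animals and 0.71 without treated replicate 1, the animal with 0 reads of CA4 and the lowest endothelium score. For CA4, 137 tested genes (1.08%) reached as high an r. With the smooth muscle and fibroblast score, CA8, CA9 and CA4 had r of 0.58, 0.46 and 0.60 (smallest adjusted permutation p = 0.237). With the squamous epithelium score their r was -0.44, -0.24 and -0.53 (smallest adjusted permutation p = 0.457). CA8, CA9 and CA4 are sparse, and the depth of each library is shared by all genes in it.

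Of the 7 endothelium markers tested, 0 were called between the diets, beside 1.24% of all genes. Their median log2 difference was -0.11, and their summed level ranged from 11.5 to 37.9 FPKM in the control and from 7.33 to 40.2 FPKM in the treated group. CA8 and CA9, both correlated with that score, had an r of 0.63 with each other (rho = 0.52; permutation p = 0.0344 and 0.1002; adjusted p = 0.206 and 0.536 over 6 pairs of members; r = 0.62 without the 2 farthest animals). The other 5 pairs of CA8, CA9, CA12 and CA13 had r between -0.20 and 0.29.

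CA12 had its highest r, 0.75, with the squamous epithelium score (rho 0.59; permutation p = 0.0110 and 0.0625; adjusted p = 0.0592 and 0.322), which did not pass after adjustment. Without the 2 farthest animals r was 0.55, and without treated replicate 6 it was 0.60. An r at least as high was found for 1435 tested genes, 11.4%, and the single markers ran from -0.48 for DSG3 to 0.83 for EVPL. CA13 followed none of the 3 scores (r of 0.12 with smooth muscle and fibroblast, -0.40 with epithelium and 0.14 with endothelium; smallest unadjusted permutation p = 0.220). CA2 and CA3 had r between -0.11 and 0.26 with the scores.

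**Figure D4:**
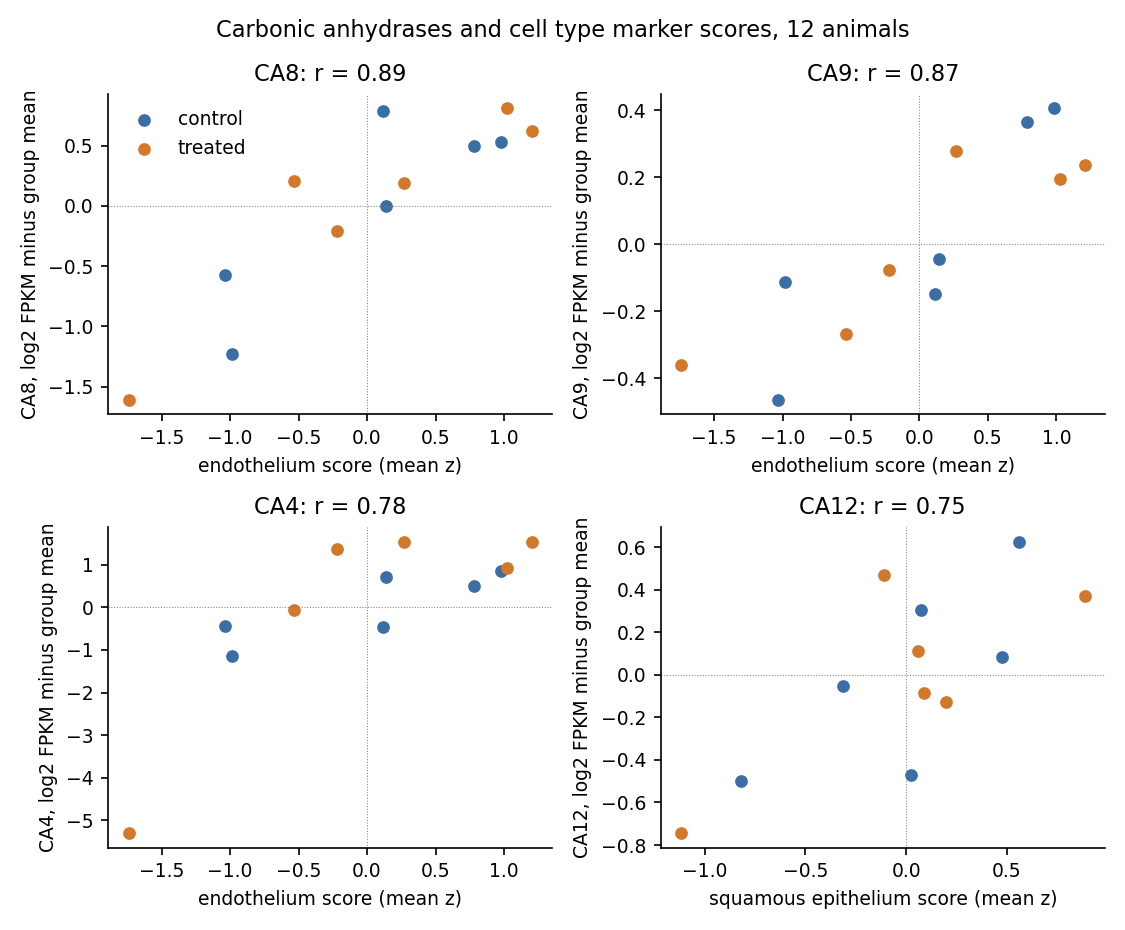
Each animal's log2 level of CA8, CA9, CA4 and CA12 minus its group mean, against a marker score (mean z-score minus group mean), with 12 animals in blue (control) and orange (treated). CA8, CA9 and CA4 climb with the endothelium score (r of 0.89, 0.87 and 0.78), and CA12 climbs with the squamous epithelium score (r of 0.75). Treated replicate 6 and control replicate 6 are the lowest animals in both CA12 and that score.

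The genes whose pattern was most like each member, by Pearson's r over the 12 animals after removal of the group means and among 12641 other genes, are given as a description. For CA8 they were ACVRL1, a receptor of the TGF-beta family known from endothelium (r = 0.95, mean 0.936 FPKM), LOC102396276 (r = 0.94) and ADGRF5, an adhesion G protein-coupled receptor (r = 0.93). For CA9 they were HTRA2, a mitochondrial protease (r = 0.93), TIE1, an endothelial receptor tyrosine kinase (r = 0.92), and EGFL7, which is also part of the score (r = 0.92). CA12 was most like THRA, a thyroid hormone receptor (r = 0.96), ADCY6, an adenylyl cyclase (r = 0.95), and SLC25A42, a mitochondrial carrier (r = 0.95). Among those most like CA13 were SNAPIN and ISOC1 (r of 0.88 for both).

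Between CA13 and the pair CA3 and CA2, the RefSeq gene table of another buffalo assembly (NDDB_SH_1) lists 3 protein-coding genes without a symbol, of which 2 had a row here. The row names of both are LOC numbers, their products are not given in the sources used here, so that whether they are carbonic anhydrases was not tested. They were chosen after their values were seen and are not counted as members. LOC112579118 had a mean of 5854 FPKM, from 3461 to 9688, was among the 11 highest of all genes by FPKM in each animal and took 0.505% to 1.41% of all counted fragments. LOC102416207 had a mean of 1056 FPKM, from 658 to 1910. In each animal the first stood 35.9 to 213 times and the second 7.69 to 42.1 times above CA12. The diets did not differ beyond the spread between animals for LOC112579118 (log2 0.18, SE 0.24; exact p = 0.450) or LOC102416207 (log2 0.12, SE 0.26; exact p = 0.606). Any reads lost because near-identical copies map to several places were not counted by the authors, and how far this touches CA13, CA3, CA2 and these genes was not tested.

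**Figure D5:**
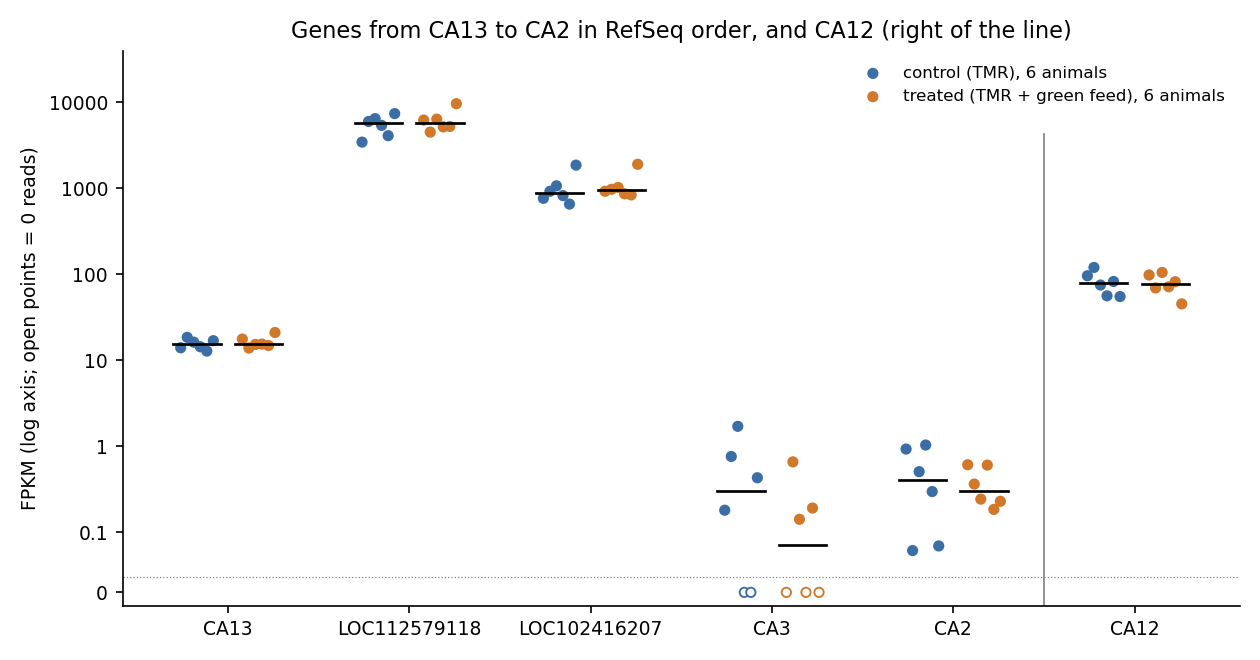
FPKM on a log axis of CA13, LOC112579118, LOC102416207, CA3 and CA2 in the order of the RefSeq gene table, with CA12 right of the line, 1 point per animal, bars at group medians and open points for 0 reads. The 2 genes without a symbol, with means of 5854 and 1056 FPKM, stand above the members on either side, where CA3 and CA2 stay below 2 FPKM.

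Rows outside the members that carry the name of a carbonic anhydrase were low, which does not cover the LOC genes above. Of CA5A, CA5B, CA6, CA7, CA10, CA11 and CA15, 6 had a row, CA6, CA7 and CA10 were at 0 in every animal, and none reached the threshold for testing. CA11, another inactive relative, was the highest with 0.977 FPKM, and the mitochondrial enzymes CA5B and CA5A had 0.271 and 0.129 FPKM. Their summed level was 1.02 to 2.43 FPKM in the control and 0.814 to 1.84 FPKM in the treated group. Red blood cell markers were at or near 0. Of 7 with a row, 4 (HBM, SLC4A1, ALAS2 and EPB42) were at 0 in all animals, and the summed level was 0.193 to 0.548 FPKM in the control and 0.255 to 0.722 FPKM in the treated group, while HBA and HBB had no row under these names.

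Of 27 transporters, pumps and channels that move bicarbonate, protons, fatty acid anions or water, 15 were tested. Among them 0 were called higher and 0 lower with green feed, with a median log2 difference of -0.01. With the squamous epithelium score as a covariate AQP3 alone was called (log2 -0.37, SE 0.15, adjusted p in limma 0.9999). Under that setting 257 of all 12642 genes tested were called. The highest, above CA12 on average, were the monocarboxylate carrier SLC16A1 (677 ± 79.6 FPKM in the control and 617 ± 124 FPKM in the treated group, SD, n = 6 each), the water and glycerol channel AQP3 (212 ± 56.8 and 179 ± 56.8 FPKM) and the chloride-bicarbonate exchanger SLC26A3 (145 ± 102 and 169 ± 89.7 FPKM). Their log2 differences were -0.15 (SE 0.15), -0.27 (SE 0.26) and 0.45 (SE 0.49).

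The tested hypoxia-inducible genes, the group in which CA9 is usually placed, had higher means than CA9. Of 16 on the list 15 were tested, with 0 higher and 0 lower and a median log2 difference of -0.04. With the smooth muscle and fibroblast score as a covariate BNIP3 alone was called (log2 -0.55, SE 0.23, adjusted p in limma 0.99997). Under that setting 361 of all 12642 genes tested were called. NDRG1, PGK1 and EGLN3 were the highest, with means of 162, 130 and 129 FPKM, against 2.33 FPKM for CA9. The lowest of the tested genes on the list had a mean of 6.42 FPKM.

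Of the remaining marker lists, squamous epithelium had 0 of 17 genes called (median log2 difference 0.02) and fibroblast 0 of 10 (median -0.58; summed level 52.5 to 288 FPKM in the control and 22.3 to 200 FPKM in the treated group). Smooth muscle had 1 of 7 called, beside 1.24% of all genes tested. This was the intermediate filament gene DES, lower in treated animals (log2 -1.04, SE 0.42, nominal p in limma below the threshold of 0.05, adjusted 0.9997). The median was -0.78 over the tested genes of the list, and the summed level was 28.9 to 51.2 FPKM in the control and 15.5 to 40.7 FPKM in the treated group. Of its genes too low for testing, ACTG2 and CNN1 were called lower in the fit over all genes above 0, and LMOD1 was not. Their log2 differences were -2.21 (SE 0.88) for ACTG2 and -3.06 (SE 1.14) for CNN1, adjusted 0.9998 each, and 2.45% of all genes were called in that fit. The DES call was lost without any 1 of 6 animals (control replicates 2, 3 and 6 and treated replicates 1, 2 and 5) and with the smooth muscle and fibroblast score as a covariate, and the count for the list ran from 0 to 4, the highest without treated replicate 4. With that score as a covariate, CA8 turned to a log2 of 0.21, CA12 moved to -0.20, CA9 to 0.28 and CA13 to 0.10, and none was called. Adipocyte and nerve markers had 1 tested gene each, FABP4 and S100B, and macrophage markers had 4, of which 0 were called. Of the skeletal muscle markers, all too low for testing, the fit over all genes above 0 called TNNT1 higher (log2 2.39, SE 0.84) and ACTA1 lower (log2 -2.03, SE 0.94). Both had an adjusted p of 0.9998 in limma, beside 2.45% of all genes called, and at most 5 and 12 reads in an animal.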

How the data were processed

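Ruminal wall RNA of 12 buffaloes (6 control, 6 treated, grouped by the labels) was analysed from the deposited table. The authors trimmed the reads with Trimmomatic 0.39, mapped them against UOA_WB_1 using STAR 2.5.2b, and counted fragments per gene by strand with featureCounts 2.0.0 (versions per the submitters' processing notes), dropping alignments of low mapping quality. The authors deposited FPKM values for all genes without a filter. Of 16 value columns, 12 matched a sample label and 4 were not used.

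Reads per gene, gene lengths and library totals were worked out from the steps of the FPKM (100% of 22972 genes above 0, tolerance 0.0001 of a read) and were used for depth, the floor of 3 reads, the threshold and voom. Tests were run on log2(FPKM + 0.01) with limma 3.58.1 in R 4.3.3 (lmFit, eBayes with trend, Benjamini-Hochberg adjustment) on the 12642 genes that reached, in at least 1 animal, the HTSFilter threshold that the study states, on TMM-scaled reads. Members below it were taken from the same fit over all genes above 0. Single genes were tested with a two-sided exact permutation test (924 assignments, smallest p 0.00216), and neighbours in the order of levels within animals by sign flips. Python 3.11.15 with numpy 2.4.6, scipy 1.17.1, pandas 2.3.3 and matplotlib 3.10.9 did the rest. The fit was checked on simulated data.

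Each animal was a separate biological replicate. No 2 libraries agreed within sampling noise. Named genes were all members, of the lists of other carbonic anhydrases, transport partners and hypoxia-inducible genes those called and at most the 3 highest, and the 3 genes most like each member with more than 3 reads in every animal. Genes of the cell type lists, the endothelium score and the LOC genes between CA13 and CA3 were named after their values were seen. Members and lists were chosen with earlier results of these data known. Alternatives were pseudocounts of 0.1 and 1, no threshold, 0.1 FPKM in 6 animals, TMM and median-ratio scales, robust empirical Bayes, voom, group means and medians, the replicate number as a block, 2 marker scores as covariates and each animal left out. Sequences were not analysed here. A gene that the naming rule gives for CA13 is not reported here.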

Additional observations from a re-analysis of the deposited data

Results flagged for a closer look

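Values were examined for animals far from the others of their group, in 18 groups of 6 (7 members and the 2 LOC genes without a symbol, each diet). A value was flagged where its gap to the nearest animal exceeded 0.625 of the group's range. With normally distributed values, chance alone gives this in about 5% of groups. FPKM need not be so distributed, CA3 was at 0 in several animals, and the groups share animals. The flags can therefore not be set against that rate. The rule was met in 4 groups. CA3 was 0.659 FPKM in treated replicate 2 (14 reads), and the next treated animal had 0.191 FPKM. The 3 others belonged to the LOC genes and to the 2 libraries that correlated least with the rest. LOC112579118 reached 9688 FPKM in treated replicate 6, where the next treated animal had 6402. LOC102416207 reached 1868 FPKM in control replicate 6 (next 1073) and 1910 FPKM in treated replicate 6 (next 1029).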

How the results depend on the processing

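No alternative called a member: the count stayed at 0 of those tested under 24 settings, and 0 genes passed the adjusted threshold under each. The count of genes at a nominal p below 0.05, 157 in the main comparison (63.7% higher in treated animals), was 562 with all genes above 0, 301 with genes of at least 0.1 FPKM in 6 animals, 361 with the smooth muscle and fibroblast score, 257 with the squamous epithelium score, and between 142 and 325 with 1 animal left out, the highest without treated replicate 6. The share of these that were higher was 48.2% with all genes above 0 and 55.8% with the FPKM filter, and from 44.9% without treated replicate 4 to 70.0% without control replicate 1. With the replicate number as a block the count of genes was 322. The labels do not say that a number marks a shared batch, and the table's column names give other numbers to control replicate 6 and to all treated animals. Same-numbered animals correlated between -0.01 and 0.42 over 6 pairs, with a mean of 0.21 against -0.04 over the 30 other pairs, and 4 of 6 controls and 4 of 6 treated animals correlated best with their own number. The highest of the 6, 0.42, was between control replicate 6 and treated replicate 6, the animals with the lowest epithelium scores. The design gives no pairing, and whether these values reflect a pairing was not tested. Without the threshold more genes were tested, and the cause of the other shifts was not tested.

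The direction turned for 3 members. CA2 (main 0.15) turned to -0.0077 and -0.075 at pseudocounts of 0.1 and 1, -0.38 for group medians or the ratio of means, and between -0.27 and 0.51 with 1 animal left out (-0.27, -0.24, -0.01 and -0.01 without control replicates 2 and 6 and treated replicates 1 and 4). CA8 turned to 0.21 with the smooth muscle and fibroblast score and 0.10 without treated replicate 1 (range -0.47 to 0.10), and CA12 to 0.03, 0.09 and 0.11 without control replicates 1 and 2 and treated replicate 6 (range -0.14 to 0.11). CA3, CA4, CA9 and CA13 kept their direction, with CA3 between -2.90 for group medians and -0.31 at a pseudocount of 1, and CA9 at 0.29 for group medians. The order of the members was the same under 17 alternatives. Among these, the alternative that added the LOC genes without a symbol could not have changed it. The first 3 steps passed without each animal in turn, and CA4 over CA2 passed only without treated replicate 1. With 1 animal left out, r with the endothelium score stayed between 0.82 and 0.93 for CA8, 0.85 and 0.89 for CA9 and 0.71 and 0.83 for CA4. For CA12 and the epithelium score it was 0.60 to 0.83, with a permutation p of 0.0832 without treated replicate 6. Depth limits CA2, CA3 and CA4, where 1 read moves a value.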

Other observations

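The 2 LOC genes without a symbol varied with CA13 and with each other among the animals, in a family of 5 relations chosen after the data were seen (12 animals, group means removed, permutation with 100000 resamples). LOC112579118 and CA13 had r = 0.85 and rho = 0.87 (permutation p = 0.00161 and 0.00131; adjusted 0.00402 and 0.00445; r = 0.82 without the 2 farthest animals). SNAPIN and ISOC1 had a higher r with CA13, 0.88 for both. How far reads of near-identical copies bear on such relations was not tested. LOC102416207 and CA13 had r = 0.72 and rho = 0.75 (permutation p = 0.0149 and 0.0132; adjusted 0.0249 and 0.0220; r = 0.59 without the 2 farthest animals). The pair itself had r = 0.84 and rho = 0.86 (permutation p = 0.00105 and 0.00178; adjusted 0.00402 and 0.00445; r = 0.80). With CA12 they had r = -0.44 and -0.60, with adjusted permutation p of 0.167 and 0.0643. LOC102416207 had r = -0.82 with the squamous epithelium score (adjusted permutation p = 0.0305 over 27 relations, rho = -0.59 with adjusted 0.322), which was -0.35 without the 2 farthest animals.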
